A study of Homo sapiens with 36 samples.

Results

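The keratin gene family was followed through 3 human cancer cell lines. Its members are the genes whose symbol in the deposited count table is KRT followed by a number, with or without a letter A, B or C, which gave 55 of 26475 symbols. Of these, 29 are type I and 26 are type II keratins. The type I genes lie on chromosome 17, apart from KRT18, and the type II genes and KRT18 lie on chromosome 12, so that 28 members are on chromosome 17 and 27 on chromosome 12. The choice of members used the symbol alone and no measured value.

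Keratins are the intermediate filament proteins of epithelial cells. A type I and a type II keratin join as an obligate heterodimer, and the pair in use marks the kind of epithelium: KRT8 with KRT18 and KRT19 in simple epithelia, KRT5 with KRT14 in the basal layer of stratified epithelia, KRT1 with KRT10 or KRT4 with KRT13 in the layers above it, and KRT6 with KRT16 and KRT17 in activated or wounded epidermis. A further set of keratins builds the hair shaft and its root sheath. The filaments are anchored at desmosomes and hemidesmosomes by plakin and armadillo proteins such as desmoplakin and plakoglobin.

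The lines were MDA-MB-468, from a basal-like carcinoma of the breast, PANC-1, from a carcinoma of the pancreas, and WiDr, from an adenocarcinoma of the colon or rectum. All 3 carried a pGIPZ vector, a lentiviral plasmid for microRNA-adapted short hairpin RNAs, with targeting hairpin 1, targeting hairpin 2 or a non-silencing control hairpin, and other WiDr cells carried guide RNA 1, guide RNA 2 or a non-targeting control guide. All cells were grown in DMEM with fetal bovine serum, and poly-A RNA was sequenced from 3 biological replicates of each of the 12 groups, 36 libraries in all. Every control thus carried a vector of its own, and uninfected cells are not analysed here. Whether a culture was a clone or a pool is not given in the sources used here. Replicates are separate samples by the series' design text, which does not say how the cultures were separated, so p-values measure the spread between these samples.

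The libraries held 28371127 to 49237322 expected counts, of which keratins took 0.490% to 1.24%. In MDA-MB-468, control replicate 1 stood apart, with 1.24% keratin and 2.23% ribosomal RNA counts, against 0.883% and 0.919% keratin and 6.58% and 8.49% ribosomal RNA counts in the other control libraries. The PANC-1 libraries labelled hairpin 2 went against that label when it was checked by the transcript that the hairpins address, and they are called by their label throughout. For 4 of the 6 libraries with a targeting guide, the genotype field disagrees with the title on which guide was used, and groups follow the titles. The basal breast markers EGFR, FOXC1, GABRP and CDH3 were all above 1 CPM (read counts brought to a common library size, with edgeR's trimmed mean of M-values, TMM) in MDA-MB-468, with EGFR at 414 to 1973 CPM, but GABRP was higher in WiDr. In WiDr, 4 of 5 intestinal markers reached 1 CPM, with VIL1 at 41.9 to 79.5 CPM and LGALS4 at 292 to 798 CPM. The intestinal CDX2 was lower in WiDr (1.15 to 3.16 CPM) than in PANC-1 (4.38 to 11.8 CPM), and CDH17 reached 0.642 CPM in WiDr and 3.43 CPM in PANC-1. In PANC-1, SOX9 and PDX1 reached 1 CPM, but the pancreatic enzyme genes PRSS1 and CPA1 had at most 13 counts. PRSS1 was at 153 to 464 CPM in WiDr. The leukocyte markers PTPRC, CD3E and CD79A had at most 16 counts in any library, while LYZ of the same list, which intestinal cells can also express, was read in WiDr.

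The keratins are set in tandem in their clusters, and their starts share one sequence feature that the symbol rule did not use. RefSeq promoter windows of GRCh38.p14 were found for 34 of the 55 keratins, in 38 windows. Among those without a window were KRT7, KRT14, KRT17, KRT18, KRT19 and KRT80, and many windows belong to hair shaft and root sheath keratins that were nearly silent. The letters ATAA on either strand, 20 to 35 bases before the start, as in a TATA box, stood in 30 of the 38 keratin windows (78.9%), against 11% of all 35116 promoters of the same length. The window of KRT8, the leading keratin of the PANC-1 control, was not among them. The GC box letters GGGCGG, on either strand anywhere in the 250 bases, were found for 4 keratins and in 42.6% of all promoters, and the AP-1 letters TGANTCA for 0 keratins and in 6.57% of all promoters. These motifs were chosen after the windows had been read, the keratin genes are copies of one another, and a match is only a match of letters. The 4 windows printed here are given in the sense of the gene, 5′ to 3′, with the ATAA core in capitals, because their genes carry the differences between lines and constructs described in the text. They are chr12:52520395-52520644 (minus strand, KRT5), chr12:52814117-52814366 (minus strand, KRT4), chr17:40822615-40822864 (minus strand, KRT10) and chr17:40885243-40885492 (minus strand, KRT20).
KRT5: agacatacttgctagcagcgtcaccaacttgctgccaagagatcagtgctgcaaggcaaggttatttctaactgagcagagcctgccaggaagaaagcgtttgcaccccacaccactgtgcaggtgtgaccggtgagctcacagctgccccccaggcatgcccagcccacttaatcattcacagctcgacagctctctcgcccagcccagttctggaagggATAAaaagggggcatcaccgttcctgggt
KRT4: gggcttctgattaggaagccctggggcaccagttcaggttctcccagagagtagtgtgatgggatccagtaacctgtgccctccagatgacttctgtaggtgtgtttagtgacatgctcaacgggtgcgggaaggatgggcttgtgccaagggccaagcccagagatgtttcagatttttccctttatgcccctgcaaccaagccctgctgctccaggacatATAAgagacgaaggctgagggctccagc
KRT10: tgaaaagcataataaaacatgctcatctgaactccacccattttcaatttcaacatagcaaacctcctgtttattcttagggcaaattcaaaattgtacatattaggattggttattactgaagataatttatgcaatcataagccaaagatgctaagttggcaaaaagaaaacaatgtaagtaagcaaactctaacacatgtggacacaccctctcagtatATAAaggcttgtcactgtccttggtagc
KRT20: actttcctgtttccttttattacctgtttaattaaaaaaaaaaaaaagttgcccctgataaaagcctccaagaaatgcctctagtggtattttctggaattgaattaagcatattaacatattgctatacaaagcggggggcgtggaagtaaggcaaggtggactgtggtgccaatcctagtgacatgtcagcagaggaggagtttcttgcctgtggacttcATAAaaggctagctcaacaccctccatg
The core begins 29 bases before the start of KRT5 and 28 bases before the starts of KRT4, KRT10 and KRT20. KRT5 and KRT4 were read almost only in MDA-MB-468 and KRT20 in WiDr, while KRT10 was read in all 3 lines.

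The control libraries show what each line expressed without a targeting construct. MDA-MB-468 had a broad keratin set of simple, basal and activated type, with 19 keratins at a mean of 5 CPM or more and 14 at 100 CPM or more. PANC-1 and WiDr were narrow: 7 keratins reached 5 CPM in the PANC-1 control, 7 in the WiDr hairpin control and 7 in the WiDr guide control, and 4, 5 and 4 of them reached 100 CPM. To compare genes with one another, the CPM were divided by the length of the principal transcript in kilobases, and a gene's share is of the sum of all 55 keratins on that per-length scale.

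**Figure D1:**
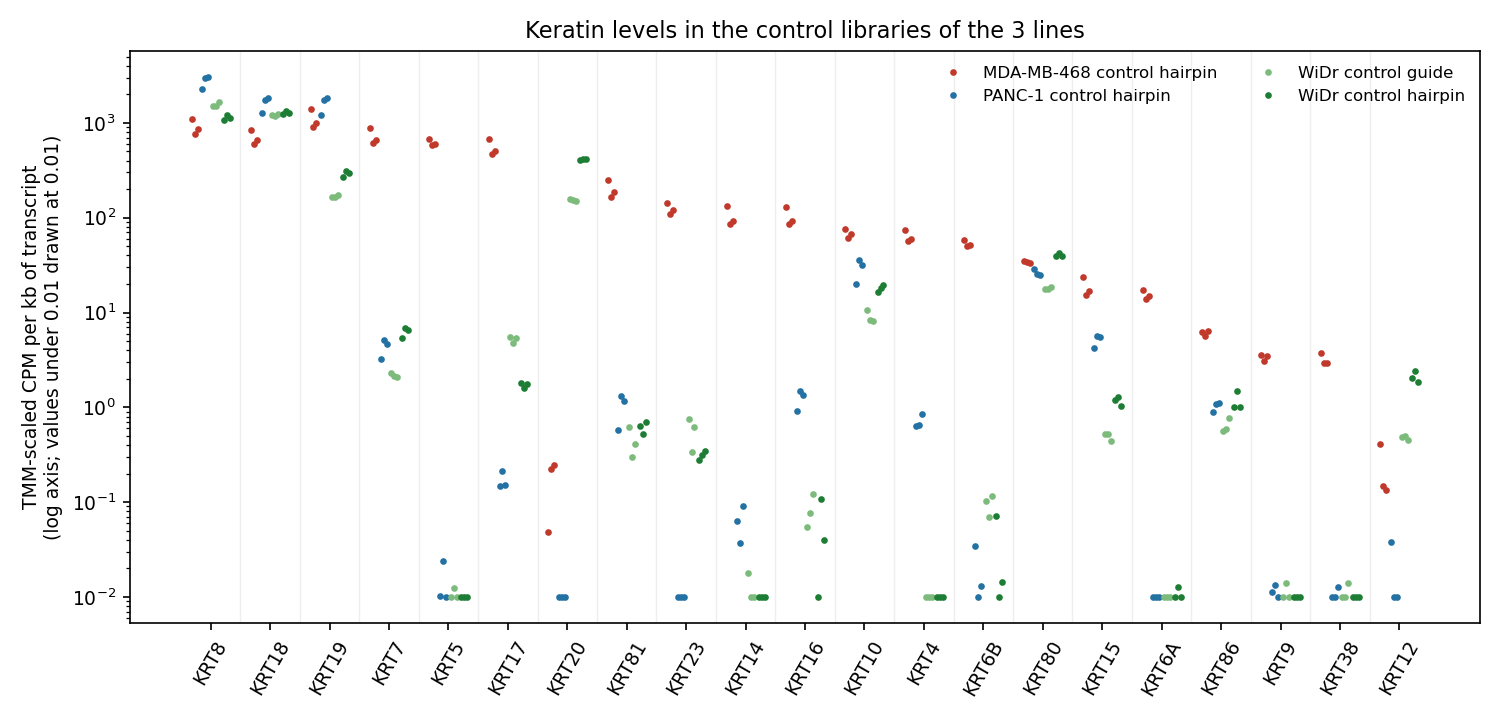
Levels of the leading keratins in the control libraries of the 3 lines, in CPM per kilobase of transcript on a log axis; each point is 1 library, and values under 0.01 are drawn at 0.01. The PANC-1 and WiDr controls hold KRT8, KRT18 and KRT19 high and KRT5 and KRT14 near 0, and the MDA-MB-468 control holds all of these.

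In the MDA-MB-468 control, KRT19, the small type I keratin of simple epithelia without a tail domain, led with 1099.5 ± 255 CPM per kilobase (± is the SD of 3 libraries wherever it follows a level) and 20.4% of the keratin sum. KRT8, KRT7, KRT18, KRT5 and KRT17 followed at 905 ± 166, 721 ± 142, 694 ± 126, 621 ± 44.8 and 551 ± 112 CPM per kilobase. None of these 6 was clear of its neighbour in the order, since their libraries overlapped, and the first gap without overlap came between KRT17 and KRT81. The hair shaft keratin KRT81 was at 202 ± 44.4, KRT14 at 103 ± 26 and KRT16 at 102 ± 23.6 CPM per kilobase.

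In the PANC-1 control, KRT8 alone made up 45.9% of the sum, at 2773 ± 441 CPM per kilobase (SD, n = 3), clear of every other keratin. KRT18 and KRT19 followed at 1618 ± 301 and 1584 ± 333 CPM per kilobase, 26.8% and 26.2% of the sum, and overlapped each other. The next keratins, KRT10 and KRT80, were at 29.2 ± 8.34 and 26.3 ± 1.88 CPM per kilobase, so that 3 genes held nearly the whole family's RNA.

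In the WiDr hairpin control, KRT18 and KRT8 led at 1286 ± 58.3 and 1138 ± 60 CPM per kilobase, 40.1% and 35.5% of the sum. KRT20, the keratin of differentiated enterocytes and goblet cells, came next with 415 ± 4.83 CPM per kilobase, 13% of the sum, and KRT19 after it with 292 ± 19.5. Each of these 4 was clear of the next. In the WiDr guide control the order differed: KRT8 led with 1558 ± 79.1, KRT18 had 1210.0 ± 31.3, KRT19 169 ± 5.17 and KRT20 153 ± 3.66 CPM per kilobase.

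The basal and activated keratins set MDA-MB-468 apart. KRT5 (chromosome 12, 52514575 to 52520687) was read at 1702, 1495 and 1518 CPM in the 3 MDA-MB-468 control libraries, against 0.026, 0.0611 and 0 CPM in the PANC-1 and 0, 0 and 0 CPM in the WiDr control libraries. Its partner KRT14 was at 221, 142 and 152 CPM in MDA-MB-468 control libraries, against 0.104, 0.0611 and 0.15 CPM in those of PANC-1 and 0, 0 and 0 CPM in those of WiDr. Every MDA-MB-468 control library was thus above every control library of the other lines for both genes, and the counts there were too few to give a fold. KRT6A, KRT4 and KRT23, which were at 35.5 ± 3.89, 163 ± 22.4 and 249 ± 33.2 CPM (SD, n = 3) in the MDA-MB-468 control, were at or below 1.84 ± 0.31 CPM in both other lines.

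KRT7 (chromosome 12, 52232520 to 52252186), a ductal keratin used with KRT20 to sort carcinomas by origin, was at 1547, 1083 and 1162 CPM in MDA-MB-468 control libraries, against 5.7, 8.96 and 8.12 CPM in those of PANC-1 and 9.38, 11.9 and 11.4 CPM in those of WiDr. The MDA-MB-468 libraries lay far above both other lines, which differed from each other by a smaller step (-0.58 ± 0.17 on the log2 scale, PANC-1 over WiDr, where ± is the SE as in all log2 values given here, adjusted p = 0.0098, edgeR). The simple keratins did not follow this order. KRT8 was at 2095, 1479.8 and 1640.1 CPM in MDA-MB-468 control libraries, 4351, 5740.4 and 5888 CPM in those of PANC-1 and 2080.3, 2309 and 2170.4 CPM in those of WiDr, so PANC-1 was highest with no overlap. KRT80, a type II keratin of wide tissue range, differed less, with 133 ± 3.17 CPM in the MDA-MB-468, 102 ± 7.24 CPM in the PANC-1 and 155 ± 5.76 CPM in the WiDr hairpin control (SD, n = 3 each).

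Across all genes, 72.4% of 16344 tested differed between the MDA-MB-468 and PANC-1 controls, 74.7% between MDA-MB-468 and WiDr and 75.1% between PANC-1 and WiDr (edgeR's quasi-likelihood test, Benjamini-Hochberg adjusted p under 0.05, which is meant by "passed" below). All 30 keratins tested differed in the first comparison, 26 of them higher in MDA-MB-468, where 36% of all genes were higher. In the second, 29 differed and 23 were higher in MDA-MB-468, where 38.0% of all genes were higher. Many of these keratins entered the test only through their level in MDA-MB-468 and so had to differ, and the counts are no support of their own. In the third comparison 18 of 30 differed, 9 higher and 9 lower in PANC-1, where 38.6% of all genes were higher. Keratins that entered through MDA-MB-468 and were near 0 in both other lines could hardly differ here. This count is therefore not comparable with the share of all genes either. Line and culture cannot be told apart in these comparisons.

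In MDA-MB-468 the hairpins were followed by more of the basal keratin KRT14 and the activation keratins KRT6A and KRT6B, and by less of KRT10 and KRT86. Those 5 of the 33 keratins tested passed with both hairpins, 3 higher and 2 lower, where 0.744% of all genes were higher and 0.567% lower with both. Both comparisons use the same control libraries. With hairpin 1, 6 of 33 keratins passed (4 higher, 2 lower), against 2.27% of 14641 genes, and with hairpin 2, 8 of 33 passed (4 higher, 4 lower), against 3.49% (1.69% higher, 1.8% lower). The median log2 fold change of the 33 keratins was -0.05 with hairpin 1 and 0.17 with hairpin 2, and that of all genes -0.01 and 0.00.

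**Figure D2:**
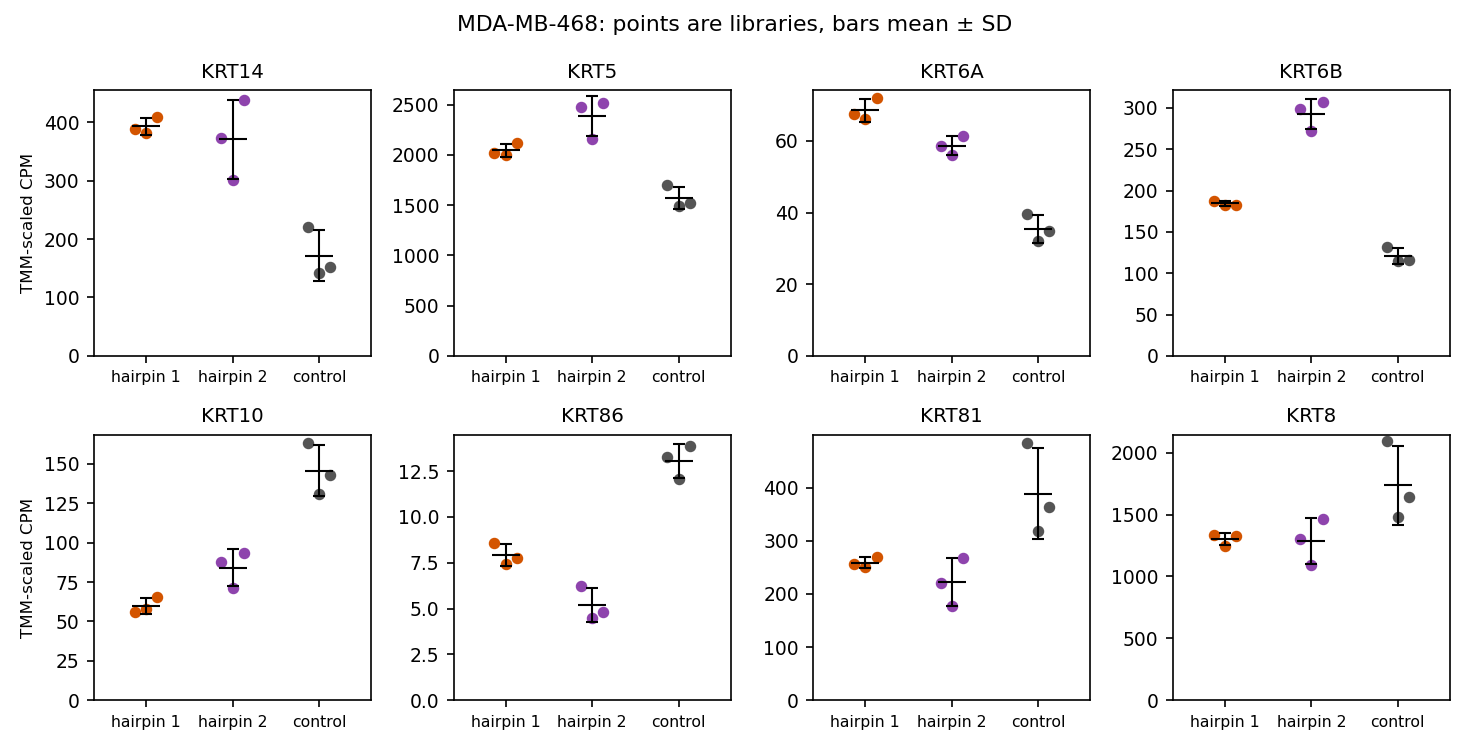
Levels of 8 keratins of MDA-MB-468 in CPM, on linear axes that start at 0, in every library with hairpin 1, hairpin 2 and the control hairpin; points are libraries and bars the mean ± SD of 3. KRT14, KRT6A and KRT6B lie above their control libraries and KRT10 and KRT86 below them, with no overlap for either hairpin.

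KRT14 (chromosome 17, 41582279 to 41586921) was at 388, 381 and 409 CPM with hairpin 1 and 373, 301 and 437 CPM with hairpin 2, against 221, 142 and 152 CPM with the control hairpin. All 6 hairpin libraries were above all 3 control libraries, of which replicate 1 was the highest. The log2 fold change was 1.17 ± 0.19 with hairpin 1 (SE, adjusted p = 0.015, edgeR) and 1.08 ± 0.19 with hairpin 2 (adjusted p = 0.016). KRT5, the type II partner of KRT14 and more abundant, was at 2022, 2001 and 2116 CPM with hairpin 1 and 2482, 2161 and 2521 CPM with hairpin 2, against 1702, 1495 and 1518 CPM with the control hairpin. Its groups did not overlap either, and it passed with hairpin 2 (0.58 ± 0.089, adjusted p = 0.0096, edgeR) while the value with hairpin 1 was 0.36 ± 0.089 (adjusted p = 0.086). The third basal keratin, KRT15, overlapped its control, with 0.11 and 0.24 on the log2 scale.

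KRT6A and KRT6B, near-identical type II genes that are switched on in wounded epidermis, both rose. KRT6A (chromosome 12, 52487174 to 52493257) was at 67.6, 66 and 72 CPM with hairpin 1 and 58.7, 56 and 61.5 CPM with hairpin 2, against 39.7, 32 and 34.9 CPM with the control hairpin. The fold was 1.9 with hairpin 1 (log2 0.93 ± 0.10, adjusted p = 0.0023, edgeR) and 1.63 with hairpin 2 (log2 0.70 ± 0.10, adjusted p = 0.0057). KRT6B (chromosome 12, 52446651 to 52452126) was at 187, 183 and 183 CPM with hairpin 1 and 299, 273 and 307 CPM with hairpin 2, against 132, 114 and 116 CPM with the control hairpin. The log2 fold change was 0.59 ± 0.083 with hairpin 1 (adjusted p = 0.0085, edgeR) and 1.25 ± 0.084 with hairpin 2 (adjusted p = 0.00016). KRT6B was also the only keratin that differed between the hairpins, higher with hairpin 2 than with hairpin 1 (0.66 ± 0.083, adjusted p = 0.012, edgeR), in a comparison where 0.437% of all genes passed. Reads of KRT6A, KRT6B and KRT6C can be exchanged between these copies in counting. The type I keratins KRT16 and KRT17, which are induced with KRT6 in the epidermis, did not pass: KRT16 had -0.21 and 0.25 and KRT17 -0.20 and 0.15 on the log2 scale.

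KRT10 (chromosome 17, 40818117 to 40822595), the type I keratin of the suprabasal epidermis, fell. It was at 55.9, 57.6 and 65.5 CPM with hairpin 1 and 87.6, 71.2 and 93.6 CPM with hairpin 2, against 163, 131 and 143 CPM with the control hairpin, and no hairpin library reached a control library. The log2 fold change was -1.31 ± 0.13 with hairpin 1 (adjusted p = 0.0016, edgeR) and -0.82 ± 0.12 with hairpin 2 (adjusted p = 0.0095). Its usual partner KRT1 had 1 to 17 counts in the libraries of this line. The suprabasal keratin KRT4 passed with hairpin 1 alone, higher by 0.57 ± 0.11 (adjusted p = 0.039, edgeR), and stood at 0.39 ± 0.11 with hairpin 2 (adjusted p = 0.11).

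The hair shaft keratins KRT81, KRT83 and KRT86 lie side by side and share much of their sequence, and the annotated span of KRT86 (chromosome 12, 52249300 to 52309163, plus strand) covers KRT81 on the other strand. KRT86 was at 8.58, 7.43 and 7.73 CPM with hairpin 1 and 6.25, 4.47 and 4.83 CPM with hairpin 2, against 13.3, 12 and 13.9 CPM with the control hairpin, without overlap. Its log2 fold change was -0.74 ± 0.13 with hairpin 1 (adjusted p = 0.025, edgeR) and -1.35 ± 0.14 with hairpin 2 (adjusted p = 0.0013). KRT81, far more abundant, was at 256, 251 and 270.0 CPM with hairpin 1 and 221, 177 and 267 CPM with hairpin 2, against 484, 318 and 364 CPM with the control hairpin. It passed with hairpin 2 (-0.84 ± 0.18, adjusted p = 0.039, edgeR) and had -0.61 ± 0.18 with hairpin 1 (adjusted p = 0.15). KRT83, at 0.381 ± 0.185 CPM with hairpin 2 and 1.54 ± 0.741 CPM with the control hairpin (SD, n = 3 each), also passed with hairpin 2 (-2.03 ± 0.42, adjusted p = 0.037). The counting may have passed reads between these 3 genes.

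No simple keratin of MDA-MB-468 passed. KRT8 was at 1302 ± 51.8 CPM with hairpin 1 and 1286 ± 183 CPM with hairpin 2, against 1738 ± 319 CPM with the control hairpin (SD, n = 3 each), and its log2 values were -0.44 ± 0.15 and -0.46 ± 0.15 (adjusted p = 0.21 and adjusted p = 0.14, edgeR). KRT18 had -0.49 ± 0.14 and -0.44 ± 0.14, KRT7 -0.067 ± 0.15 and -0.11 ± 0.15, and KRT19 -0.0082 ± 0.17 and -0.10 ± 0.17. For KRT8 neither hairpin overlapped the control libraries, and for KRT18 hairpin 1 did not but hairpin 2 did. KRT23, a type I keratin at 249 ± 33.2 CPM in the control (SD, n = 3), had -0.15 and -0.064, and KRT80 -0.034 and -0.15 on the log2 scale.

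The number of calls in MDA-MB-468 depended on single libraries. With hairpin 1 it was 2 without control replicate 3, 2 without hairpin 1 replicate 2, 2 without hairpin 1 replicate 3 and 3 without hairpin 1 replicate 1, and with hairpin 2 it was 4 without control replicate 3 and 4 without hairpin 2 replicate 1. Without control replicate 1, the library that stood apart, 7 and 10 keratins passed with hairpin 1 and hairpin 2. The call of KRT14 was lost in 4 of these fits with hairpin 1 and in 3 with hairpin 2, and that of KRT6B with hairpin 1 in 3, while KRT10 and KRT6A passed in all that left out a library. Over all alternatives, KRT86 and KRT4 lost their call with hairpin 1 under 4 and 7, and KRT5, KRT81 and KRT83 lost theirs with hairpin 2 under 3, 7 and 8. In the fit of the 2 arms alone, KRT10 and KRT6A also lost their call with hairpin 2.

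In PANC-1, 6 keratins fell and none rose with both constructs. KRT8, KRT18 and KRT80, together with the low KRT4, KRT16 and KRT86, passed with hairpin 1 and also in those labelled hairpin 2. Of the 13 keratins tested these 6 were lower with both, where 11.1% of all genes were, and both comparisons use the same control libraries. KRT4 among the 6 entered the test through the control alone and so had to be lower. With hairpin 1, 6 of 13 passed, all lower, against 14.0% of 15128 genes that were lower and 30.2% that passed in either direction. In the libraries labelled hairpin 2, 8 of 13 passed, all lower, against 16.7% of all genes lower and 33.4% in either direction. The median log2 fold change of the 13 was -0.54 with hairpin 1 and -0.74 for the label hairpin 2, against -0.02 and -0.0047 for all genes. The summed level of all 55 keratins was 6811 ± 883 CPM with hairpin 1 and 5755 ± 259 CPM in the libraries labelled hairpin 2, against 10143 ± 1774 CPM with the control hairpin (SD, n = 3 each). Since the cultures were measured in bulk, fewer cells that express a keratin and less of its RNA per cell cannot be told apart. Fibroblast markers summed to 41.1 to 45.7 CPM with hairpin 1 and 17.2 to 20.4 CPM in the libraries labelled hairpin 2, against 11.4 to 21.3 CPM with the control hairpin, most of it COL1A1. In the libraries labelled hairpin 2 this sum was within the control range and COL1A2 and DCN were at 0 counts. The part of these markers in the keratin results was not tested, neither with hairpin 1 nor in the libraries labelled hairpin 2.

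**Figure D3:**
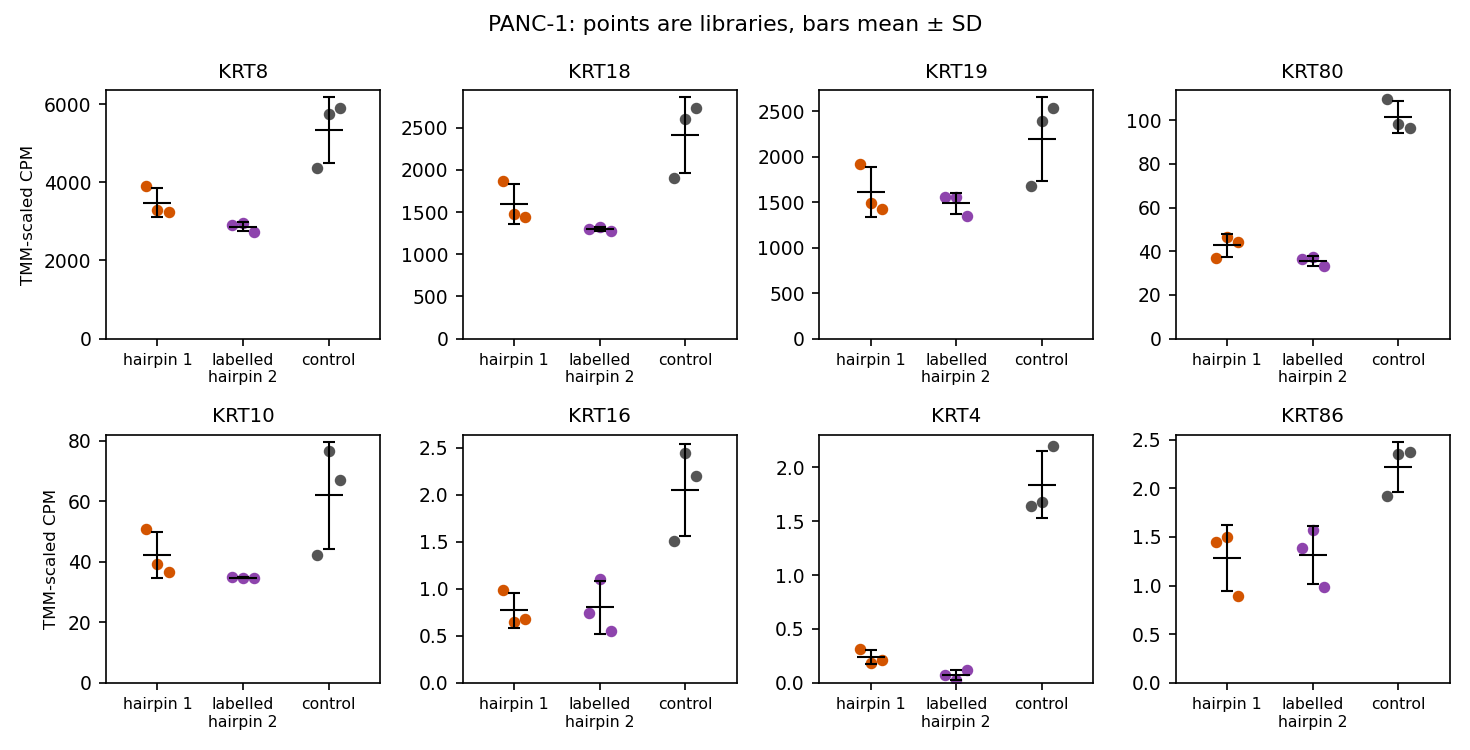
Levels of 8 keratins of PANC-1 in CPM, on linear axes that start at 0, in every library with hairpin 1, in the libraries labelled hairpin 2 and with the control hairpin; points are libraries and bars the mean ± SD of 3. KRT80 and KRT4 lie far below their control libraries, while for KRT19 and KRT10 the lowest control library lies within the range of hairpin 1.

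KRT8 (chromosome 12, 52897187 to 52949954) was at 3900.2, 3289.7 and 3233 CPM with hairpin 1 and 2898, 2956 and 2737 CPM in the libraries labelled hairpin 2, against 4351, 5740.4 and 5888 CPM with the control hairpin. The groups did not overlap, although control replicate 1 was the lowest of its group and hairpin 1 replicate 1 the highest of its own. The log2 fold change was -0.61 ± 0.13 with hairpin 1 (adjusted p = 0.009, edgeR) and -0.89 ± 0.14 in the libraries labelled hairpin 2 (adjusted p = 0.0013). Its partner KRT18 (chromosome 12, 52948871 to 52952901) was at 1868, 1481 and 1445 CPM with hairpin 1 and 1303, 1321 and 1269 CPM in the libraries labelled hairpin 2, against 1900.5, 2599 and 2738 CPM with the control hairpin. Its log2 fold change was -0.58 ± 0.15 (adjusted p = 0.018, edgeR) and -0.89 ± 0.15 (adjusted p = 0.0024), so type II and type I partner moved by about the same step. The annotated spans of KRT8 and KRT18 overlap at the start of KRT18, on opposite strands.

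KRT19 (chromosome 17, 41523617 to 41528308) was at 1927, 1494 and 1422 CPM with hairpin 1 and 1553, 1555 and 1352 CPM in the libraries labelled hairpin 2, against 1674, 2399 and 2533 CPM with the control hairpin. Hairpin 1 replicate 1 lay above control replicate 1, so the groups overlapped, and KRT19 passed in the libraries labelled hairpin 2 (-0.56 ± 0.17, adjusted p = 0.035, edgeR) but not with hairpin 1 (-0.44 ± 0.17, adjusted p = 0.084). KRT10 was at 50.9, 39.2 and 36.8 CPM with hairpin 1 and 34.9, 34.7 and 34.7 CPM in the libraries labelled hairpin 2, against 42.4, 76.8 and 67 CPM with the control hairpin. It passed in the libraries labelled hairpin 2 only (-0.83 ± 0.20, adjusted p = 0.013, edgeR), while between the arms the value was -0.28 (adjusted p = 0.65).

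KRT80 (chromosome 12, 52168996 to 52192000) had the largest change among the 7 keratins at 5 CPM or more in the control. It was at 36.9, 46.6 and 44.3 CPM with hairpin 1 and 36.5, 37.3 and 33.1 CPM in the libraries labelled hairpin 2, against 109.8, 98.2 and 96.5 CPM with the control hairpin. No library of either hairpin reached a control library. The level was 2.36-fold lower with hairpin 1 (log2 -1.24 ± 0.11, adjusted p = 6.1e-05, edgeR) and 2.83-fold lower in the libraries labelled hairpin 2 (log2 -1.5 ± 0.11, adjusted p = 2.1e-05). KRT4 had 12, 7 and 8 counts with hairpin 1 and 3, 1 and 4 counts in the libraries labelled hairpin 2, against 63, 55 and 73 counts with the control hairpin, and it entered the test through the control alone. KRT16 was at 0.77 ± 0.187 CPM with hairpin 1 and 0.802 ± 0.282 CPM in the libraries labelled hairpin 2, against 2.05 ± 0.485 CPM with the control hairpin (SD, n = 3 each). KRT86 was at 1.28 ± 0.339 CPM with hairpin 1 and 1.32 ± 0.299 CPM in the libraries labelled hairpin 2, against 2.22 ± 0.255 CPM with the control hairpin. Neither KRT16 nor KRT86 overlapped its control. KRT15 (0.26 and 0.25), KRT7 (0.079 and -0.21), KRT32 (-0.10 and 0.074), KRT75 (1.19 and 1.24) and KRT81 (-0.27 and -0.70) did not pass in either comparison on the log2 scale.

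Between the libraries labelled hairpin 2 and those with hairpin 1, 0 of 13 keratins passed by edgeR and 0 by DESeq2, with 2 at an unadjusted p under 0.05, KRT4 and KRT80, and 0.106% of all genes passed. Ribosomal RNA counts moved with the groups in PANC-1, at 0.838% to 2.60% with hairpin 1 and 1.22% to 1.80% in the libraries labelled hairpin 2, against 4.61% to 9.60% with the control hairpin. With the ribosomal RNA genes left out, 6 and 8 keratins passed, all lower. With hairpin 1 the count was 4 without control replicate 2 or replicate 3 and 4 without hairpin 1 replicate 2 or replicate 3, KRT18 and KRT86 being lost. KRT8, KRT80, KRT16 and KRT4 passed with both in every fit that left out a library.

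In WiDr the hairpins were followed by less KRT80, KRT19, KRT12, KRT13 and KRT15. Those 5 of 16 keratins tested passed with both hairpins, all lower, where 12.9% of all genes were lower with both, and 0 passed higher with both. With hairpin 1, 13 of 16 passed (3 higher, 10 lower), against 48.0% of 14317 genes (24.1% higher, 23.9% lower). With hairpin 2, 6 of 16 passed (37.5%), all lower, against 44.7% of all genes in either direction and 22.5% lower. The keratin share was thus smaller than that of all genes in either direction and larger than that of genes lower. The median log2 fold change of the 16 was -0.58 with hairpin 1 and -0.18 with hairpin 2, against 0.00 and -0.01 for all genes. The hairpins differed from each other for 9 of 16 keratins (6 higher and 3 lower with hairpin 2), where 42.4% of all genes differed (20.6% higher with hairpin 2). The keratin sum stayed close to its control, at 5641 ± 328 CPM with hairpin 1 and 5362 ± 92.9 CPM with hairpin 2, against 5455 ± 241 CPM with the control hairpin (SD, n = 3 each).

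**Figure D4:**
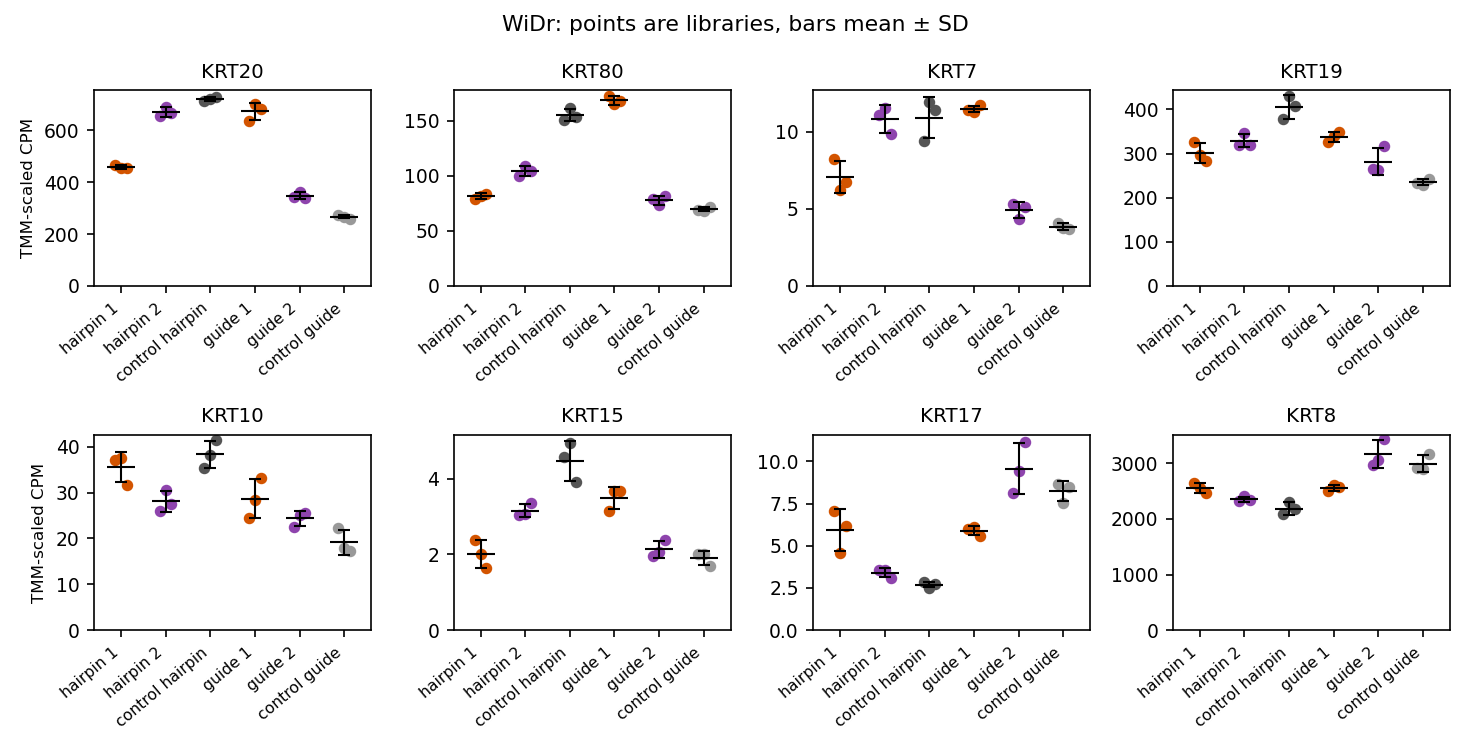
Levels of 8 keratins of WiDr in CPM, on linear axes that start at 0, in every library of the hairpin experiment and of the guide experiment, targeting groups before their own control; points are libraries and bars the mean ± SD of 3. KRT80, KRT20 and KRT7 lie low with hairpin 1 and high with guide 1 relative to their own control, and for these genes the control guide lies below the control hairpin.

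KRT80 was at 79.3, 81.8 and 83.9 CPM with hairpin 1 and 99.7, 109 and 104 CPM with hairpin 2, against 151, 162 and 153 CPM with the control hairpin. The groups did not overlap, and hairpin 1 was also below hairpin 2. The level was 1.89-fold lower with hairpin 1 (log2 -0.92 ± 0.049, adjusted p = 8e-10, edgeR) and 1.5-fold lower with hairpin 2 (log2 -0.58 ± 0.049, adjusted p = 1.4e-07). KRT19 was at 326, 296 and 282 CPM with hairpin 1 and 319.9, 346 and 320.4 CPM with hairpin 2, against 377, 431 and 408 CPM with the control hairpin. Both hairpins were below every control library and overlapped each other. Its log2 fold change was -0.42 ± 0.065 (adjusted p = 7.2e-05, edgeR) and -0.31 ± 0.065 (adjusted p = 0.0011).

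The remaining members lower with both hairpins were low in this line. KRT15, a basal keratin, was at 2.38, 2 and 1.64 CPM with hairpin 1 and 3.05, 3.06 and 3.35 CPM with hairpin 2, against 4.58, 4.93 and 3.9 CPM with the control hairpin. The corneal keratin KRT12 had log2 values of -0.53 ± 0.15 and -0.80 ± 0.16 and the mucosal keratin KRT13 of -0.84 ± 0.28 and -1.46 ± 0.29 with hairpin 1 and hairpin 2. Their control levels were 4.34 ± 0.599 and 2.43 ± 0.567 CPM (SD, n = 3). KRT12 and KRT13 lost their call with hairpin 1 under 3 and 4 alternatives. With hairpin 2, KRT15 and KRT12 lost theirs under 2 and 1, so the group of 5 depends in part on the setting.

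KRT20 (chromosome 17, 40875941 to 40885227) separated the hairpins. It was at 465, 453 and 453 CPM with hairpin 1 and 656, 689.9 and 666 CPM with hairpin 2, against 713, 720.5 and 729.6 CPM with the control hairpin. Hairpin 1 lay far below the control, and hairpin 2 close under it. The log2 fold change was -0.65 ± 0.048 with hairpin 1 (adjusted p = 3e-08, edgeR) and -0.11 ± 0.048 with hairpin 2, which did not pass (adjusted p = 0.063), and hairpin 2 was above hairpin 1 by 0.54 ± 0.048 (adjusted p = 4.6e-07). KRT7 had the same order, with 7.06 ± 1.03 CPM with hairpin 1 and 10.8 ± 0.901 CPM with hairpin 2, against 10.9 ± 1.34 CPM with the control hairpin (SD, n = 3 each), and the hairpins differed by 0.61 ± 0.12 (adjusted p = 0.00076, edgeR). The 5 intestinal markers, of which 3 or 4 reached 1 CPM in each group, summed to 835 to 874 CPM with hairpin 1 and 674 to 695 CPM with hairpin 2, against 459.6 to 512 CPM with the control hairpin. Most of this sum was LGALS4, and its part in the result was not tested.

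KRT17 rose with hairpin 1. It was at 7.08, 4.6 and 6.18 CPM with hairpin 1 and 3.59, 3.55 and 3.09 CPM with hairpin 2, against 2.84, 2.51 and 2.77 CPM with the control hairpin, so that all hairpin libraries were above the control. The change passed with hairpin 1 (1.14 ± 0.16, adjusted p = 2.5e-05, edgeR) and not with hairpin 2 (0.33 ± 0.17, adjusted p = 0.12). KRT8 and KRT18, which hold most of this line's keratin RNA, moved little: KRT8 had 0.23 ± 0.061 and 0.10 ± 0.061 and KRT18 0.20 ± 0.072 and -0.06 ± 0.072 with hairpin 1 and hairpin 2. Both passed with hairpin 1, KRT8 at adjusted p = 0.0048 and KRT18 at adjusted p = 0.034 (edgeR), but KRT18 lost that call under 9 alternatives, among them the replicate block. Lower with hairpin 1 alone were also the hair shaft keratins KRT81 (-0.86) and KRT86 (-0.97) and the type I keratin KRT40 (-1.09). KRT10 passed with hairpin 2 only (-0.46 ± 0.084, adjusted p = 0.00043, edgeR). Ribosomal RNA counts took 1.27% to 2.56% with hairpin 1 and 5.38% to 10.2% with hairpin 2, against 1.59% to 2.71% with the control hairpin, and with these genes left out 13 and 6 keratins passed.

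With the guides in the same line, KRT7, KRT10, KRT19, KRT20 and KRT80 were higher than with the control guide, among them KRT19 and KRT80, which were lower with both hairpins. These were 5 of 16 keratins tested, where 8.48% of all genes were higher with both, and 0 were lower with both. Both comparisons use the same control guide libraries. With guide 1, 12 of 16 passed (10 higher, 2 lower), against 41.6% of 14649 genes (21.4% higher, 20.3% lower). With guide 2, 7 of 16 passed, all higher, against 25.5% of all genes (14.1% higher). The median log2 fold change of the 16 was 0.74 with guide 1 and 0.22 with guide 2, against -0.0044 and 0.02 for all genes. The guides differed from each other for 14 of 16 keratins (5 higher and 9 lower with guide 2), where 34.4% of all genes differed.

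KRT20 was at 637, 701 and 682 CPM with guide 1 and 343, 362 and 339 CPM with guide 2, against 272, 268 and 259.6 CPM with the control guide. The 3 groups were apart, guide 1 highest. The level was 2.55-fold higher with guide 1 (log2 1.35 ± 0.051, adjusted p = 9.1e-12, edgeR) and 1.32-fold higher with guide 2 (log2 0.40 ± 0.05, adjusted p = 2.3e-05). KRT80 was at 172, 165 and 168 CPM with guide 1 and 78.7, 73.3 and 81.4 CPM with guide 2, against 68.9, 68.5 and 71.6 CPM with the control guide. Guide 2 lay just above the control, with a log2 fold change of 0.18 ± 0.052 (adjusted p = 0.018, edgeR), and guide 1 far above it, with 1.29 ± 0.051 (adjusted p = 1.3e-11).

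KRT7 was at 11.4, 11.3 and 11.7 CPM with guide 1 and 5.28, 4.32 and 5.13 CPM with guide 2, against 4.09, 3.75 and 3.67 CPM with the control guide, and its log2 fold change was 1.59 ± 0.10 (adjusted p = 3.5e-09, edgeR) and 0.37 ± 0.11 (adjusted p = 0.019). KRT19 was at 326, 339 and 349 CPM with guide 1 and 265, 262 and 316 CPM with guide 2, against 232, 229.6 and 243 CPM with the control guide, a change of 0.54 ± 0.063 and 0.28 ± 0.063. KRT10 was at 24.5, 28.4 and 33.1 CPM with guide 1 and 22.6, 25.1 and 25.5 CPM with guide 2, against 22.3, 17.8 and 17.4 CPM with the control guide, a change of 0.60 ± 0.11 and 0.37 ± 0.11. The KRT10 call with guide 2 was lost under 8 alternatives, among them the replicate block, no filter on low counts and leaving out control guide replicate 2 or replicate 3. KRT7 lost its call with guide 2 under 7 alternatives and KRT80 under 6. For KRT7, KRT19 and KRT10 no targeting library fell below the highest control library. Higher with guide 1 alone were KRT12, KRT15, KRT81, KRT83 and KRT86, by 1.17, 0.89, 1.14, 1.07 and 0.88 on the log2 scale. KRT83 lost its call under 5 alternatives.

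KRT8 and KRT17 were lower with guide 1. KRT17 was at 5.98, 6.11 and 5.58 CPM with guide 1 and 8.14, 9.41 and 11.2 CPM with guide 2, against 8.68, 7.56 and 8.5 CPM with the control guide, and passed with guide 1 (-0.47 ± 0.12, adjusted p = 0.0035, edgeR). Guide 2 overlapped the control. KRT8 was at 2502, 2605 and 2583 CPM with guide 1 and 2975, 3063 and 3445 CPM with guide 2, against 2911, 2899 and 3168 CPM with the control guide, with log2 values of -0.21 ± 0.059 and 0.10 ± 0.059. KRT18 and KRT23 passed with guide 2 alone, KRT18 at 0.20 ± 0.058 (adjusted p = 0.019, edgeR) and KRT23 at 1.02 ± 0.24 (adjusted p = 0.0061). KRT18 lost this call under 7 alternatives, among them the 2 arms alone. KRT23 was at 2.25 ± 0.208 CPM with guide 2 and 1.12 ± 0.416 CPM with the control guide (SD, n = 3 each).

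These guide results rest on the titles of the libraries. Grouped by the genotype field instead, 2 keratins passed with guide 1 and 1 with guide 2, and 0 differed between the guides by edgeR, with 1 at an unadjusted p under 0.05 (KRT10), where 0 of 15268 genes passed. With guide 2 the count was 3 without control guide replicate 2 and 3 without guide 2 replicate 3.

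The control guide itself differed from the control hairpin in the same line. Of 30 keratins, 10 passed (2 higher, 8 lower with the control guide), against 26.4% of all genes (13.6% higher, 12.8% lower). These 30 passed the filter over all 12 control libraries, many only through MDA-MB-468, while 16 were tested in each WiDr experiment. Keratins near 0 in both WiDr controls could hardly differ here, so the count of 10 is not comparable with the share of all genes. KRT20 was at 266 ± 6.35 CPM with the control guide and 721 ± 8.39 CPM with the control hairpin (SD, n = 3 each), 2.76-fold lower with the control guide (log2 -1.46 ± 0.17, adjusted p = 0.00025, edgeR). KRT80 (-1.18 ± 0.077), KRT7 (-1.53 ± 0.18), KRT19 (-0.81 ± 0.17), KRT10 (-1.02 ± 0.18), KRT15 (-1.26 ± 0.20), KRT12 (-2.17 ± 0.40) and KRT86 (-0.90 ± 0.19) were lower as well, while KRT17 (1.58 ± 0.15) and KRT8 (0.43 ± 0.14) were higher with the control guide. KRT8 lost its call under 9 alternatives, among them the replicate block and leaving out any WiDr control library. For KRT20 this step was larger than that of any targeting construct over its own control in this line. With guide 1, KRT20 and KRT80 came to 673 ± 33 and 169 ± 3.74 CPM, beside 721 ± 8.39 and 155 ± 5.76 CPM with the control hairpin. The vector and the experiment cannot be told apart here.

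**Figure D5:**
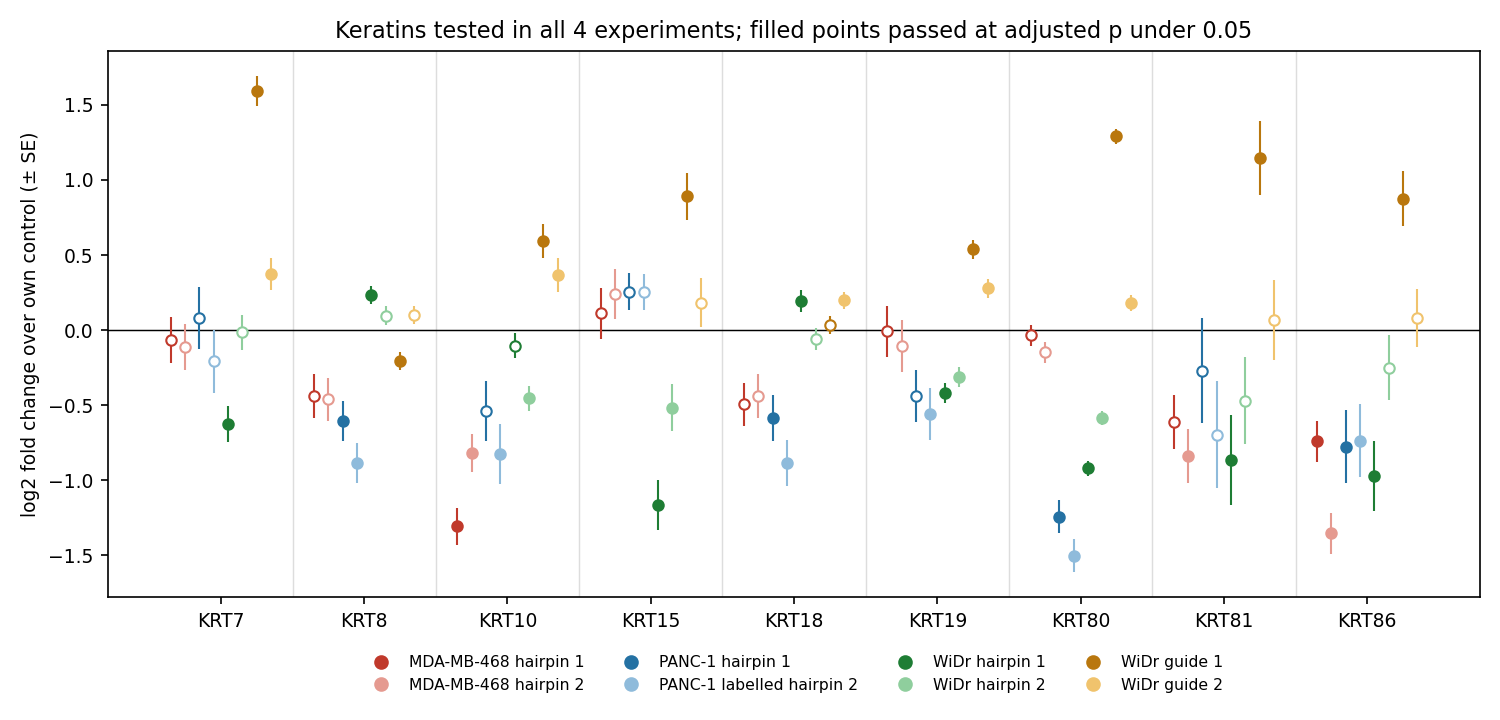
Log2 fold change of the 9 keratins tested in all 4 experiments, each construct over its own control; points are fitted values, bars their standard errors, and filled points passed at an adjusted p under 0.05. KRT80 is below 0 with both constructs in PANC-1 and with both WiDr hairpins and above 0 with both guides, and KRT86 is below 0 with every hairpin.

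The effects were compared between experiments in 1 fit of all 36 libraries, as the mean of both constructs over their own control in one experiment minus that in the other. Keratins are counted among those tested in both experiments, but the shares of all genes are over all 17170 genes of this fit. Of the 33 keratins in the fit, 6 (18.2%) passed for MDA-MB-468 minus PANC-1 and 9 (27.3%) for MDA-MB-468 minus the WiDr hairpins. For PANC-1 minus the WiDr hairpins 6 (18.2%) passed, and for the WiDr guides minus the hairpins 11 (33.3%). The MDA-MB-468 effect was above the PANC-1 effect for 4 of the 13 keratins tested in both, KRT4, KRT16, KRT80 and KRT19, where 31.9% of all genes differed. This count is close to that share. KRT4 entered the PANC-1 test through the control alone and so had to be lower there, and KRT19 lost its call under 11 alternatives. The difference was 1.31 ± 0.082 for KRT80 (adjusted p = 3.4e-13, edgeR), whose mean effect was -0.09 with the MDA-MB-468 hairpins and -1.37 with those of PANC-1. Against the WiDr hairpins the MDA-MB-468 effect differed for 8 of 16 keratins, where 17.5% of all genes did: KRT13, KRT15 and KRT80 higher and KRT8, KRT10, KRT17, KRT18 and KRT83 lower. KRT8 and KRT18 differed by -0.59 ± 0.13 (adjusted p = 0.002, edgeR) and -0.51 ± 0.15 (adjusted p = 0.014).

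The PANC-1 effect differed from the WiDr hairpin effect for 4 of 9 keratins, where 37.6% of all genes did: KRT8 (-0.92 ± 0.13), KRT18 (-0.81 ± 0.15) and KRT80 (-0.63 ± 0.082) were lower in PANC-1 and KRT15 (1.09 ± 0.18) higher. Between the guides and the hairpins of WiDr, 11 of 16 keratins differed, 10 higher with the guides and 1 lower, where 19.9% of all genes differed (10.7% higher, 9.14% lower). The difference was 1.47 ± 0.083 for KRT80 (adjusted p = 2e-13, edgeR), 1.29 ± 0.21 for KRT7 and 1.24 ± 0.21 for KRT20, and -0.87 ± 0.19 for KRT17. Each effect is over its own control, so the step between the control guide and the control hairpin enters these values. KRT80, KRT7 and KRT20 were lower and KRT17 higher with the control guide than with the control hairpin. The part of that step in the differences was not tested. Of the keratins tested in both experiments of each of these comparisons, KRT80 was the 1 that passed in all 4.

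The balance of type II over type I keratins, from the summed per-length levels, is a ratio of group means and was not tested. In MDA-MB-468 it was 0.989 with hairpin 1 and 0.984 with hairpin 2, against 0.947 with the control hairpin. In PANC-1 it was 0.808 with hairpin 1 and 0.766 for the label hairpin 2, against 0.866 with the control hairpin. In WiDr it was 0.690 and 0.670 with hairpin 1 and hairpin 2, against 0.588 with the control hairpin, and 0.739 and 0.930 with guide 1 and guide 2, against 1.02 with the control guide. In PANC-1 and WiDr nearly all type II RNA was that of KRT8.

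Genes that work with keratins did not move in 1 direction with them. The lists of these genes were drawn up with earlier results of these data known. Of the desmosomal and hemidesmosomal anchors, 0 of 17 tested passed with both hairpins in MDA-MB-468 (median log2 0.07 and -0.04). In PANC-1, 7 of 16 were higher both with hairpin 1 and in those labelled hairpin 2 (DSP, JUP, DSG2, DSC2, DSC3, EPPK1 and ITGB4) and 1 lower (PKP4), where 12.7% of all genes were higher with both, and the median log2 of the 16 was 0.89 and 0.95. So 6 keratins were lower and 7 anchor genes higher in the same PANC-1 libraries. KRT4 among these keratins and DSC3 among these anchors entered the test only through the groups where they were high. DSP, desmoplakin, which ties keratin filaments to the desmosome, was at 39.3, 69.2 and 67.6 CPM with hairpin 1 and 55.9, 54.6 and 63.3 CPM in the libraries labelled hairpin 2, against 7.59, 3.94 and 5.23 CPM with the control hairpin. Both overlapped each other and neither overlapped the control, and the log2 fold change was 3.40 ± 0.28 and 3.37 ± 0.28 (adjusted p = 4e-05 and adjusted p = 4e-05, edgeR). DSC2, a desmosomal cadherin, was at 21.3 ± 3.59 CPM with hairpin 1 and 19.2 ± 1.81 CPM in the libraries labelled hairpin 2, against 1.73 ± 0.0952 CPM (SD, n = 3 each). ITGB4, the integrin chain of the hemidesmosome, was at 188 ± 31.6 and 162 ± 11.7 CPM, against 23.3 ± 7.15 CPM. DSC3 had 79, 126 and 102 counts with hairpin 1 and 69, 66 and 52 counts in the libraries labelled hairpin 2, against 3, 2 and 3 counts with the control hairpin.

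In WiDr, 4 of 18 anchors were higher with both hairpins (DSP, JUP, PKP2 and DSC2) and 0 lower, where 12.3% of all genes were higher with both, and the median log2 of the 18 was 0.07 with hairpin 1 and 0.21 with hairpin 2. DSP was at 204, 247 and 266 CPM with hairpin 1 and 225, 213 and 221 CPM with hairpin 2, against 132, 124 and 123 CPM with the control hairpin, which neither hairpin overlapped (log2 0.92 ± 0.07 and 0.79 ± 0.07). With the guides, 0 of 17 anchors were higher with both and 1 lower (EVPL).

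The other intermediate filament genes were few in each experiment. In MDA-MB-468, 1 of 8 passed with both hairpins, INA, the neuronal alpha-internexin, where 0.567% of all genes were lower with both, at 1.8 ± 0.235 CPM with hairpin 1 and 1.66 ± 0.0529 CPM with hairpin 2, against 3.09 ± 0.544 CPM with the control hairpin (SD, n = 3 each). In PANC-1, VIM was higher and SYNM lower with both, of 9 tested, where 12.7% of all genes were higher and 11.1% lower. VIM, the vimentin gene of mesenchymal cells, was at 6517 ± 460.0 CPM with hairpin 1 and 5687 ± 185 CPM in the libraries labelled hairpin 2, against 4069 ± 502 CPM with the control hairpin, and so higher in the libraries where 6 keratins were lower. In WiDr, LMNA and LMNB1, genes of the nuclear lamina, were higher and NES lower with both hairpins, of 5 tested, where 12.3% of all genes were higher and 12.9% lower. NES, nestin, was also lower with both guides, of 4 tested, where 6.26% of all genes were lower, at 4.31 ± 0.755 and 4.17 ± 0.355 CPM with guide 1 and guide 2, against 8.8 ± 0.57 CPM with the control guide.

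Of the cornified envelope genes, 0 of 7 passed with both hairpins in MDA-MB-468, where KRT6A and KRT6B rose, and 1 each, lower, in PANC-1 (CSTA, of 4), with the WiDr hairpins (CSTA, of 6) and with the guides (FLG, of 5), where 11.1%, 12.9% and 6.26% of all genes were lower with both constructs. CSTA was at 0.335 ± 0.0793 and 0.248 ± 0.0702 CPM with hairpin 1 and hairpin 2 in WiDr, against 1.05 ± 0.251 CPM with the control hairpin, and FLG at 0.461 ± 0.116 and 0.444 ± 0.191 CPM with guide 1 and guide 2, against 1.07 ± 0.16 CPM with the control guide (SD, n = 3 each). Of the epithelial transcription factors, 0 of 11 passed with both hairpins in MDA-MB-468. In PANC-1, KLF4 of 9 was higher with both, where 12.7% of all genes were. With the WiDr hairpins KLF5 and OVOL2 were higher and GRHL1 and GRHL3 lower, of 10, where 12.3% of all genes were higher and 12.9% lower. With the guides 5 of 11 were higher (GRHL3, ELF3, KLF4, KLF5 and OVOL1) and 0 lower, where 8.48% of all genes were higher and 6.26% lower, with median log2 values of 0.32 and 0.24.

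GRHL3, a grainyhead factor of epithelial barrier formation, was lower with both hairpins and higher with both guides in WiDr, as KRT80 and KRT19 were. It was at 4.66, 6.37 and 6.83 CPM with hairpin 1 and 5.9, 4.99 and 4.98 CPM with hairpin 2, against 8.87, 7.85 and 8.59 CPM with the control hairpin (log2 -0.49 ± 0.13 and -0.69 ± 0.13). It was at 4.63, 6.18 and 5.47 CPM with guide 1 and 4.78, 5.43 and 6.08 CPM with guide 2, against 2.34, 3.53 and 2.61 CPM with the control guide (log2 0.96 ± 0.16 and 0.96 ± 0.16). In each experiment all targeting libraries were apart from the control libraries, while the hairpins overlapped each other and so did the guides. Across the experiments the targeting libraries lay at the same level, 4.66 to 6.83 CPM with the hairpins and 4.63 to 6.18 CPM with the guides. The controls did not overlap, at 7.85 to 8.87 CPM with the control hairpin and 2.34 to 3.53 CPM with the control guide. KLF4, a factor of gut and skin differentiation, was at 77.5 ± 3.42 and 40.9 ± 3.32 CPM with guide 1 and guide 2, against 31.3 ± 1.58 CPM with the control guide (SD, n = 3 each).

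The rest of the family was silent or nearly so. Of the 55 members, 33 passed the filter on low counts in at least 1 experiment, 13 of them in MDA-MB-468 only, and 9 in all 4 experiments: KRT7, KRT8, KRT10, KRT15, KRT18, KRT19, KRT80, KRT81 and KRT86. The other 22 were not tested, and none of them had more than 14 counts in any library. In 24 members no library reached 20 counts. These were 11 of the 17 hair shaft keratins, 8 of the 9 keratins of the inner root sheath and companion layer, and 5 of the 14 suprabasal and other stratified keratins.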

How the data were processed

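The authors deposited 1 table of expected counts per gene symbol for the 36 libraries. Bowtie2 2.1.0 and RSEM 1.2.15, which estimates counts and shares reads between similar genes, and the build hg38 are named in the submitters' processing notes. Annotation and strand setting: not given in the sources used here, so reads of overlapping or antisense genes may be mixed. The deposited expected counts were rounded to whole numbers and tested with edgeR 4.0.16 (R 4.3.3): TMM scaling, its filter on low counts, a robust quasi-likelihood fit of the 9 libraries of each experiment, of the 12 control libraries for the lines, and of all 36 libraries for differences between effects. P-values were adjusted by Benjamini-Hochberg over all genes tested, with a threshold of 0.05, and SE is that of the log2 fold change. The scripts were tested on simulated data. CPM were scaled by TMM over all 36 libraries, and their ratios lay within 0.029 (log2) of the fitted values. Gene spans and transcript lengths come from GENCODE 29, and promoter windows from RefSeq. DESeq2 1.42.0, RLE scaling, no filter, leaving out ribosomal RNA genes, other sets of libraries and a replicate block were tried as alternatives.

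The members, although set by the symbol rule alone, and the lists were chosen with earlier results of these data known. Counts over the lists are therefore no support of their own. Keratins were named with values in every library where they reached a mean of 5 CPM in an arm and passed with both constructs or differed between lines, and others were named by fold change or range. Of the partner lists, up to 4 genes per experiment with the largest mean change were named. The gene that the constructs address is not reported here. Whether same-numbered libraries deviated together was checked, and in no experiment was every same-number correlation over 0.1, so the numbers were not taken to pair the libraries. Counts as low as these for minor keratins limit precision, and a floor of 3 counts was used for folds.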

Additional observations from a re-analysis of the deposited data

Results flagged for a closer look

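For 27 pairs of a keratin and a pair of experiments, the effects on the log2 scale differed by the test of the difference itself in 1 edgeR fit of all 36 libraries (adjusted p under 0.05). Each effect is the mean over both constructs relative to their own control, and differences that name the same experiment share its libraries.

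The MDA-MB-468 effect minus the PANC-1 effect was 4.26 for KRT4, 1.42 for KRT16, 1.31 for KRT80 and 0.48 for KRT19. KRT4 had at most 12 counts with the PANC-1 constructs, and KRT19 lost its call under 11 alternatives. Against the WiDr hairpins, the MDA-MB-468 effect was higher for KRT13 (1.85), KRT15 (1.04) and KRT80 (0.68). It was lower for KRT83 (-1.81), KRT10 (-0.76), KRT17 (-0.74), KRT8 (-0.59) and KRT18 (-0.51). KRT8 had mean effects of -0.45 in MDA-MB-468 and 0.17 in WiDr.

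The PANC-1 effect minus the WiDr hairpin effect was 1.09 for KRT15, -0.63 for KRT80, -0.81 for KRT18 and -0.92 for KRT8. KRT80 was lower in both lines, with mean effects of -1.37 in PANC-1 and -0.75 in WiDr.

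The guide effect minus the hairpin effect in WiDr was 1.47 for KRT80, 1.36 for KRT15, 1.29 for KRT7, 1.28 for KRT13, 1.24 for KRT20, 1.24 for KRT12, 1.23 for KRT81, 1.07 for KRT86, 0.76 for KRT19 and 0.74 for KRT10, and -0.87 for KRT17. KRT20 had mean effects of 0.88 with the guides and -0.38 with the hairpins. The step between the control guide and the control hairpin enters all these differences, and its part was not tested. KRT80, KRT15, KRT7, KRT20, KRT12, KRT86, KRT19 and KRT10 were lower and KRT17 higher with the control guide than with the control hairpin. KRT13 and KRT81 did not pass between these controls. KRT81 lost its call under 21 alternatives and KRT12 under 15.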

How the results depend on the processing

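The counts of keratins called moved by more than 1.5 times under 4 settings. By DESeq2 the count was 10 with MDA-MB-468 hairpin 1 and 4 between its hairpins. With the 2 arms alone it was 2 with MDA-MB-468 hairpin 2 and 4 with guide 2. With all 36 libraries in 1 fit, where more genes pass the filter, it was 10 with PANC-1 hairpin 1, 13 in the libraries labelled hairpin 2, 1 between these, 8 with WiDr hairpin 1 and 1 with guide 2. With the guides grouped by genotype field it was 2 with guide 1, 1 with guide 2 and 0 between the guides. That grouping also turned signs: KRT17 with guide 1 came to 0.004, and guide 2 over guide 1 to 0.37 for KRT12, -0.49 for KRT13, 0.46 for KRT15, -0.55 for KRT17, -0.066 for KRT18, 0.20 for KRT19, 0.51 for KRT20, -0.30 for KRT23, 0.64 for KRT7, -0.18 for KRT8, 0.55 for KRT80, 0.44 for KRT81, 0.70 for KRT83 and 0.56 for KRT86. Except for that grouping, whose construction swaps libraries between the guides, the cause was not tested.

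Leaving out 1 library at a time gave 2 to 7 calls with MDA-MB-468 hairpin 1, 4 to 10 with hairpin 2 and 0 to 1 between them, and 3 to 7 with guide 2. The other counts stayed within 1.5 times of their value. Of 2826 values for single keratins, 174 lost the call and 0 changed sign.

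With the replicate number as a block, 7, 9 and 1 keratins passed for the MDA-MB-468 hairpins, 4, 6 and 0 for those of PANC-1, 12, 6 and 10 with the WiDr hairpins and 12, 7 and 14 with the guides (hairpin or guide 1, then 2, then 2 over 1). In PANC-1, KRT18 and KRT86 with hairpin 1 and KRT19 and KRT86 in the libraries labelled hairpin 2 lost their call, as did KRT18 with WiDr hairpin 1, KRT10 with guide 2, and, between controls, KRT19 (MDA-MB-468 over PANC-1), KRT80 (MDA-MB-468 over WiDr) and KRT8 (control guide over control hairpin). The numbers were not taken to pair the libraries: correlations of deviations were -0.217 to 0.636 for same-numbered MDA-MB-468 libraries and -0.621 to 0.555 for others, while in PANC-1 they were -0.675 to 0.128 for same-numbered and -0.336 to 0.499 for other libraries, with the WiDr hairpins -0.149 to 0.0688 and -0.113 to 0.135, and with the guides -0.0549 to 0.126 and -0.13 to 0.0702. With ribosomal RNA genes left out, and with RLE scaling, the construct counts were as reported.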

Other observations

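Among the 24 keratins that stayed under 20 counts in every library, PANC-1 hairpin 1 replicate 2 had counts for 23, with a sum of 80 and at most 7 for any of them. The other PANC-1 libraries had counts for 1 to 5 of these keratins, with sums of 1 to 18, and the WiDr libraries for 0 to 4. For 12 of the 24 that library held the highest count of all 36.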
